A study of Rattus norvegicus with 42 samples.

Results

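Retinas that had received any injection before damaging light were compared with retinas that had received the light alone, across all genes. The injected retinas were 5 vehicle plus light and 5 nanoceria plus light libraries, pooled to 10, and the uninjected ones were 7 light damage libraries, which makes 17 of the 31 libraries analysed. Vehicle plus light rats received vehicle in the vitreous, the gel that fills the eye, and nanoceria plus light rats received 1 mM cerium oxide nanoparticles there. All 3 groups were adult rats kept in light of 15000 lux for 24 h, and light damage rats had no injection. Groups without that light were 5 vehicle, 4 nanoceria and 5 control libraries, the control rats being untreated. Both injected groups share the needle and the fluid, so a difference that they have in common does not separate the puncture from the fluid. The time between injection, light and dissection, and whether uninjected eyes had a sham puncture, could not be taken from the labels.

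A needle wound to the eye is known, from work in rats and mice, to protect photoreceptors against later light. The protection is called preconditioning, and it has been tied to growth factors and cytokines such as FGF2, CNTF and LIF, which act largely through the Müller glia, the radial support cells of the retina. LIF and its relatives activate the transcription factor STAT3 in these glia and in photoreceptors, SOCS3 holds that signal back, and the endothelin EDN2 is released by stressed photoreceptors. A wound also alerts microglia, the resident phagocytes, and the light itself draws in blood monocytes through chemokines such as CCL2 and CCL3. The comparison asks whether any of this differed between injected and uninjected eyes after the same light.

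Vehicle plus light libraries held 87979270 to 182162368 counts, nanoceria plus light libraries 97980166 to 120285482, and light damage libraries 25158407 to 149429413. The lowest belonged to light damage 1, which stood apart: 8 genes with placeholder or copy names held 22.9% of its counts, against 0.211% to 0.765% in every other library. Light damage 4 and 7 were close to identical, with a chi-square per gene of 10.51. All same-group pairs other than these and vehicle 4 and 7 had 88.9 or more. The labels number light damage 4 and 7 as separate biological replicates. Their difference was larger than sampling noise, which cannot tell 2 animals from 2 libraries of 1 animal. They were kept as 2 libraries, so every n = 7 for light damage counts them as 2. If they are 1 animal, the spreads and p-values given are too small. Main counts are also given with both near-identical pairs summed. Y-linked transcripts were high in 2 of 5 vehicle plus light, 3 of 5 nanoceria plus light and 4 of 7 light damage libraries. Rod, cone, bipolar and Müller glia marker lists were present in all light-exposed groups, with a mean log2 level in light damage of 7.73 for rods, 4.02 for cones, 5.39 for bipolar cells and 6.80 for Müller glia. Levels are in CPM, read counts scaled to each library's effective size. In whole retina, fewer cells of a type and less RNA per cell cannot be told apart.

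Few genes separated injected from uninjected eyes, and none of the called genes was one of the protective factors Fgf2, Lif, Cntf, Bdnf and Edn2. Of 18094 genes tested, 33 rose and 55 fell in injected plus light against light damage (0.182% and 0.304% of genes, 0.486% in all; edgeR adjusted p under 0.05). Of these, 6 of the higher and 29 of the lower genes changed at least 2-fold, and the median size of a called log2 change was 0.81. The lower genes included the chemokine gene Ccl3, the endothelial adhesion gene Sele, the peptide genes Apln and Nts and 5 histocompatibility genes. The higher genes included Sox9 of Müller glia, the microglial receptors P2ry12 and P2ry13, and Vps50 and Slc27a1. At an unadjusted p under 0.05 there were 1945 genes, where 905 would be expected by chance.

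The size of this set depended on single libraries. It was 55 genes without light damage 1, 51 without light damage 6 and 166 without nanoceria plus light 4. With the near-identical pairs summed it was 57 (17 higher, 40 lower), and with light damage 1 also left out it was 24 (7 higher, 17 lower), an alternative chosen after seeing the data. All 8 genes that dominated light damage 1 were among the 55 lower genes and none stayed called without that library. A total of 36 of the 88 genes stayed called whichever 1 of the 17 libraries was left out. For 23 of the 88, every injected library lay above, or every one below, all 7 light damage libraries, against 0.171% of all genes.

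The chemokine gene Ccl3 and the adhesion gene Sele were lower in injected eyes, and both calls depended on single light damage libraries. Ccl3, a chemokine that draws monocytes and macrophages, was at 6.96, 4.93, 3.2, 4.98 and 3.88 CPM in vehicle plus light and at 2.92, 2.47, 4.59, 5.78 and 7.19 CPM in nanoceria plus light, against 6.44, 8.81 and 14.5 CPM (lowest, median, highest of 7) in light damage. Only the lowest light damage library reached into the injected range. Its log2 change was -1.13 ± 0.23 (edgeR adjusted p = 0.0173). The call was lost without light damage 6 (edgeR adjusted p = 0.0602) and with the pairs summed and light damage 1 left out (0.0934). Sele, the E-selectin that lets leukocytes roll on vessel walls, was at 10.8, 4.48, 1.91, 2.98 and 2.82 CPM in vehicle plus light and at 3.84, 3.14, 5.6, 3.46 and 4.37 CPM in nanoceria plus light, against 5.75, 7.64 and 18.6 CPM in light damage. Vehicle plus light 1 lay among the light damage libraries, and the other 9 injected libraries lay below them all. Sele changed by -1.25 ± 0.26 (log2, SE; edgeR adjusted p = 0.0215), and the call ended without light damage 5 or without light damage 6 (edgeR adjusted p up to 0.0849), with the compared groups fitted alone (0.199) and with the pairs summed and light damage 1 left out (0.0609).

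Ccl2 did not pass. Ccl2, the main monocyte attractant, was at 69.2, 92.4, 18.3, 44.4 and 37.2 CPM in vehicle plus light and at 14.1, 19, 42.4, 64.2 and 43.3 CPM in nanoceria plus light, against 57.4, 90.3 and 140 CPM in light damage. The groups overlapped through 3 injected libraries, and its change of -1.06 ± 0.28 had an edgeR adjusted p of 0.0953, with DESeq2 giving 0.0247 and limma-voom 0.00558. The adhesion gene Icam1 changed by -0.47 ± 0.13 (edgeR adjusted p = 0.128). Of 29 chemokine and cytokine genes tested, 1 fell and none rose, beside 0.304% of all genes called lower, 23 had a negative log2 fold change, and their median was -0.34, against 0.002 over all genes. Cxcl13, an attractant of B cells, differed in sign from most of them, at 13.1 ± 9.11 CPM in injected plus light and 5.92 ± 2.19 CPM in light damage (SD, n = 10 and 7; edgeR adjusted p = 0.0902). Fcnb, a ficolin of myeloid cells that starts the lectin route of complement, averaged 2.64 ± 2.39 CPM in injected plus light and 9.72 ± 6.66 CPM in light damage (log2 -1.89 ± 0.45, edgeR adjusted p = 0.0487), but held its call in 3 of the 17 fits that leave out 1 library. Cd209e, a C-type lectin chosen after its values were seen, fell to at most 0.087 CPM in injected plus light, against 0.039 to 1.25 CPM in light damage (log2 -3.43 ± 0.58, edgeR adjusted p = 0.00364).

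**Figure D1:**
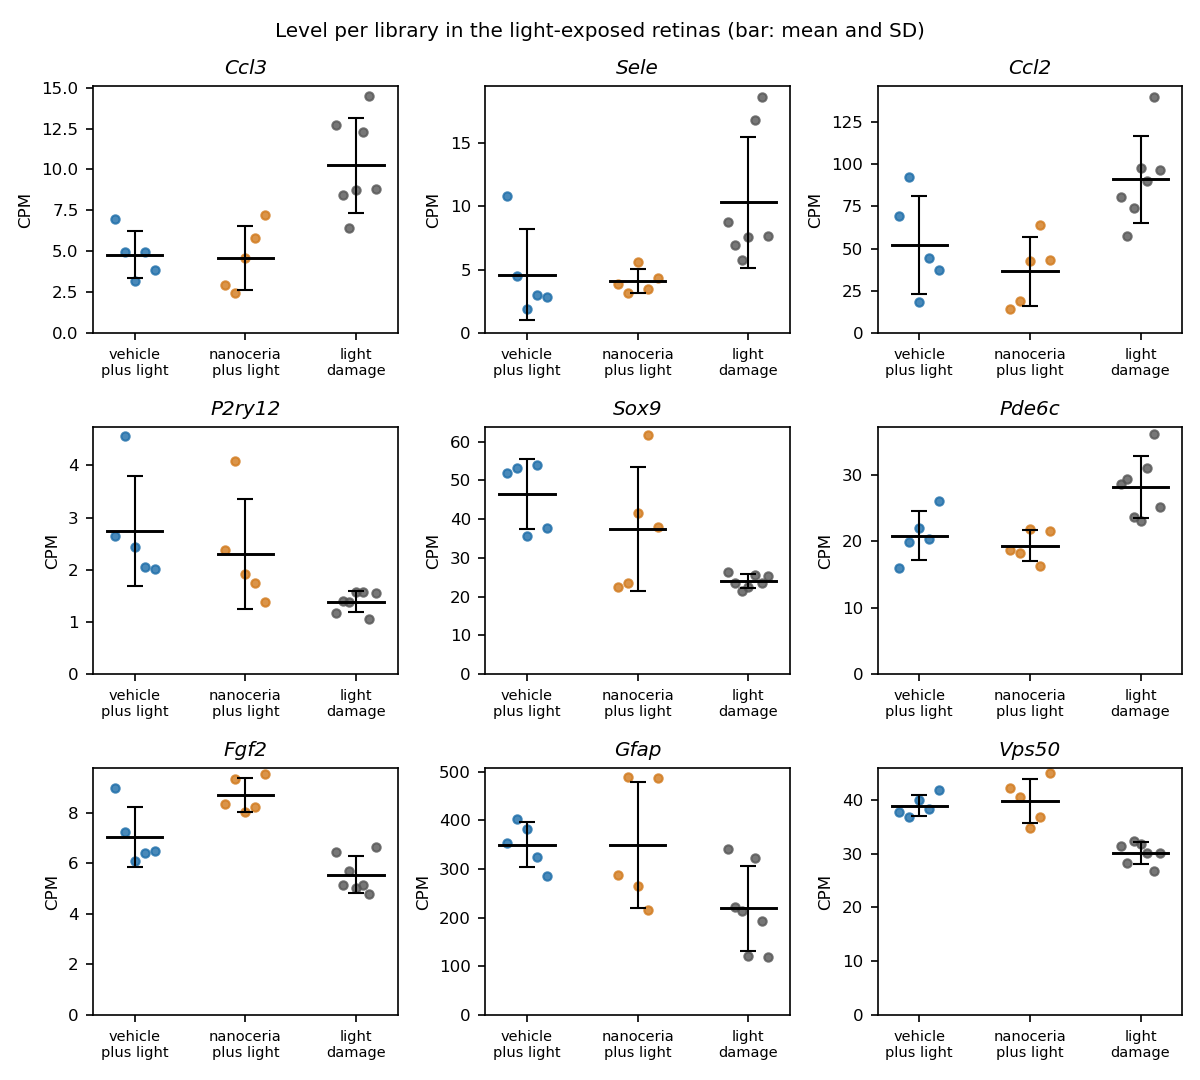
Level of 9 genes in CPM (vertical axes from 0) in each vehicle plus light (5), nanoceria plus light (5) and light damage (7) library, with a bar at the mean and whiskers of 1 SD. Ccl3, Sele and Pde6c have lower means in the injected groups than in light damage, with some libraries overlapping. Vps50 lies higher without overlap. Fgf2, Gfap and Ccl2, which did not pass, overlap between groups as well.

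The microglial receptor genes P2ry12 and P2ry13 were higher in injected eyes. P2ry12, the ADP receptor by which resting microglia sense injury, was at 2.65, 4.56, 2.43, 2.05 and 2.02 CPM in vehicle plus light and at 2.38, 4.09, 1.91, 1.75 and 1.39 CPM in nanoceria plus light, against 1.05, 1.4 and 1.57 CPM in light damage. Of the 10 injected libraries, 9 lay above all 7 light damage libraries. It rose by 0.85 ± 0.20 (log2, SE; edgeR adjusted p = 0.0415) and its relative P2ry13 by 0.80 ± 0.19 (edgeR adjusted p = 0.0461). Both calls were near the threshold: each held in 5 of the 17 fits with 1 library left out (edgeR adjusted p up to 0.121), and P2ry12 had 0.212 with the pairs summed and light damage 1 left out.

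Timd4, a phosphatidylserine receptor with which resident macrophages take up dying cells, was low everywhere, at 0.181, 0.252, 0.13, 0.199 and 0.254 CPM in vehicle plus light and at 0.502, 0.135, 0.36, 0.261 and 0.0681 CPM in nanoceria plus light, against 0, 0.036 and 0.0652 CPM in light damage. The 2 sets of libraries did not overlap, and its rise of 2.71 ± 0.47 (edgeR adjusted p = 0.00381) held in all 17 fits with 1 library left out and in all 13 other alternatives. Milr1, an inhibitory receptor of myeloid cells, rose by 1.42 ± 0.27 (edgeR adjusted p = 0.00842; 0.0686 with the pairs summed and light damage 1 left out). Timd4 and Milr1 were chosen after their values were seen. Lyz2, the lysozyme of phagocytes, was at 137 ± 49.3 CPM in injected plus light and 246 ± 79 CPM in light damage (log2 -0.84 ± 0.22, edgeR adjusted p = 0.0817). Of 28 microglia and macrophage markers tested, 2 rose and none fell, beside 0.182% of all genes called higher, 18 had a positive log2 fold change, and the median was 0.11. Of 21 complement genes none passed, 16 were positive and the median was 0.24. C3, the central complement protein, was at 42.8 to 136 CPM in injected plus light and 27.7 to 178 CPM in light damage (log2 0.24 ± 0.37, edgeR adjusted p = 0.862).

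Of the Müller glia genes, Sox9 rose. This transcription factor, which marks Müller glia in the adult retina, was at 52, 53.2, 35.7, 54 and 37.6 CPM in vehicle plus light and at 22.5, 23.6, 41.6, 61.8 and 38 CPM in nanoceria plus light, against 21.5, 23.6 and 26.3 CPM in light damage. Nanoceria plus light 1 and 2 lay within the light damage range and the other 8 injected libraries lay above it. The difference was 0.80 ± 0.15 (log2, SE; edgeR adjusted p = 0.00797) and stayed called with each library left out, but had an edgeR adjusted p of 0.0577 with the pairs summed and light damage 1 left out and 0.0796 with the compared groups fitted alone. Of 15 Müller glia identity genes it was the 1 called, beside 0.182% of all genes called higher, while 13 were positive with a median of 0.14. Gfap, the filament protein of reactive glia, was at 353, 402, 383, 325 and 285 CPM in vehicle plus light and at 288, 489, 265, 216 and 486 CPM in nanoceria plus light, against 120, 213 and 341 CPM in light damage. The groups overlapped, and its change of 0.68 ± 0.40 did not pass (edgeR adjusted p = 0.557). None of 23 glial reactivity genes passed. Their median was 0.01.

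None of the known protective factors passed the test. Fgf2, the growth factor most often linked to injury in the retina, came nearest, at 9, 7.26, 6.08, 6.41 and 6.5 CPM in vehicle plus light and 8.35, 9.34, 8.05, 8.24 and 9.54 CPM in nanoceria plus light, against 4.8, 5.15 and 6.66 CPM in light damage. All 5 nanoceria plus light libraries lay above every light damage library, and 3 vehicle plus light libraries lay among them. Fgf2 changed by 0.50 ± 0.13 (log2, SE; 95% interval 0.23 to 0.77; edgeR adjusted p = 0.0902), with DESeq2 giving 0.0121, limma-voom 0.0123 and edgeR on the compared groups alone 0.0476. Lif, the cytokine that acts on STAT3, changed by -0.48 ± 0.31, with an interval of -1.11 to 0.17. Its relative Cntf changed by 0.09 ± 0.18, with an interval of -0.27 to 0.45. Bdnf, which binds the receptor TrkB, changed by -0.02 ± 0.14, with an interval of -0.31 to 0.27. None of these 3 passed (edgeR adjusted p from 0.61 to 0.98).

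Edn2, Stat3 and Socs3 did not pass either. Edn2 was at 3.07 ± 1.13 CPM in injected plus light and 2.02 ± 0.54 CPM in light damage (SD, n = 10 and 7; log2 0.61 ± 0.29, edgeR adjusted p = 0.46). Stat3 was at 559 ± 56.4 CPM in injected plus light and 591 ± 30.9 CPM in light damage (log2 -0.08 ± 0.10, 95% interval -0.29 to 0.13). Socs3 was at 42.9 ± 13.2 CPM in injected plus light and 41.5 ± 9.6 CPM in light damage. Of 39 trophic factor and receptor genes and 16 STAT3 targets tested none passed, with medians of -0.02 and -0.10. Cdnf, a neurotrophic factor of the endoplasmic reticulum, changed by 0.79 ± 0.24 (edgeR adjusted p = 0.156), and Il4r, a cytokine receptor listed with the STAT3 targets, changed by 0.77 ± 0.19 (edgeR adjusted p = 0.0652).

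**Figure D2:**
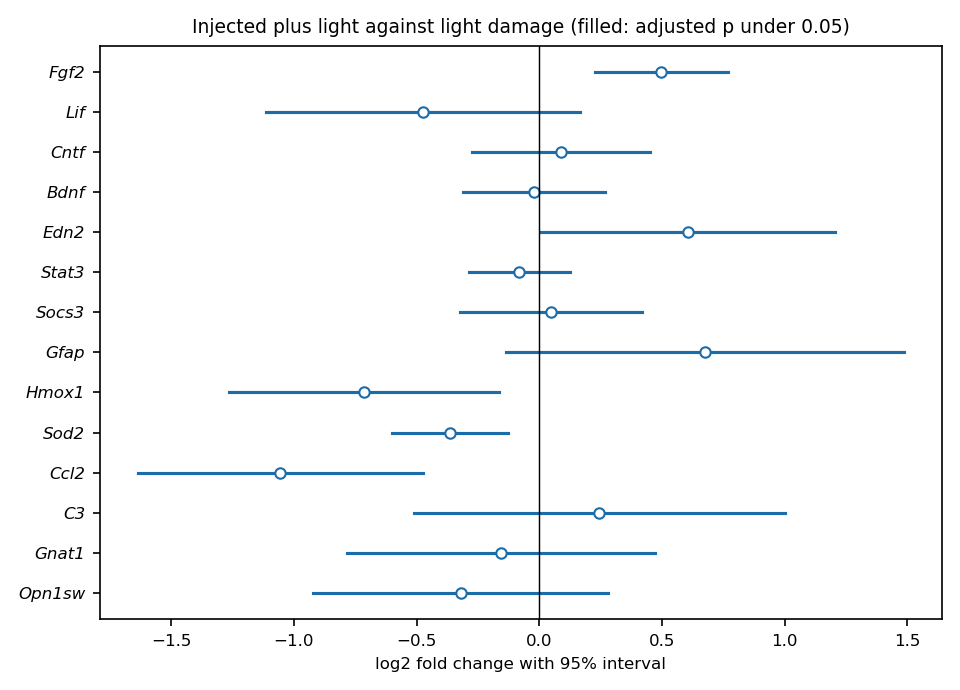
Log2 fold change, injected plus light against light damage, with its 95% interval for 14 genes of protection, stress, inflammation and photoreceptors. All circles are open because none of the 14 passed an edgeR adjusted p under 0.05, and the intervals of Fgf2, Edn2, Ccl2, Hmox1 and Sod2 exclude 0 before adjustment.

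Promoter windows of 4 genes, set by annotated start sites, are shown for the STAT, AP-1 and NF-kB motifs of the injury and inflammation pathways. They run from 250 bases before to 50 bases after the start site in the RefSeq annotation of GRCr8, 5′ to 3′ on the gene's strand, with motif matches in capitals. Fgf2 stands for the protective factors, Nts and Rbm3 for lower genes with a match, chosen after their values were seen, and Sele for leukocyte adhesion.
Fgf2 (chr2:122164204-122164503, plus strand): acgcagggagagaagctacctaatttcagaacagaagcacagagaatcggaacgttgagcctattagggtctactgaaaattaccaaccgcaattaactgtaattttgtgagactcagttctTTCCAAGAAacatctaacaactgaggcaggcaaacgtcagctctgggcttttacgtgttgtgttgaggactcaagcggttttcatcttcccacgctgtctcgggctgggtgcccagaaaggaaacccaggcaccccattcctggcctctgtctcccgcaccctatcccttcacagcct
Nts (chr7:39460839-39461138, minus strand): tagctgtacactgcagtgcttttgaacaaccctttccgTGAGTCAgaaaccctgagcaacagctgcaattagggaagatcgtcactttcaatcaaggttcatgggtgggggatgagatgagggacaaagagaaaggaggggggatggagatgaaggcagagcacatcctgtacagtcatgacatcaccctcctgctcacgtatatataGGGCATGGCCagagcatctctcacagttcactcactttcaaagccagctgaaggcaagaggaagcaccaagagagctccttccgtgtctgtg
Rbm3 (chrX:17020655-17020954, plus strand): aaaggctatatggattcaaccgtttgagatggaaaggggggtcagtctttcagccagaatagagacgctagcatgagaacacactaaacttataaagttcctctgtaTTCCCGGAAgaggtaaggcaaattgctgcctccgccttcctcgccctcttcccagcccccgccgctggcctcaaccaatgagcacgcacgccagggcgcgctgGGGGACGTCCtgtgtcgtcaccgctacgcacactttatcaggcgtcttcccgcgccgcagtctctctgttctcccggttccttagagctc
Sele (chr13:78936264-78936563, plus strand): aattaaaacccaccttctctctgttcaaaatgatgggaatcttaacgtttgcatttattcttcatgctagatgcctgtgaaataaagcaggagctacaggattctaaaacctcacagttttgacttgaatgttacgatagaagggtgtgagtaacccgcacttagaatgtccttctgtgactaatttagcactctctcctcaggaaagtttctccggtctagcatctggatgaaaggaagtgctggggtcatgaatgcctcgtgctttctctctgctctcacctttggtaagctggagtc
The motifs searched on both strands were STAT (TTCNNNGAA), AP-1 (TGANTCA), NF-kB (GGG and CC with any 5 bases between), the ATF4 element (TGATGNAA), CRX (TAATCC) and the antioxidant element (TGACNNNGC). Fgf2 held 1 STAT match, 120 to 128 bases before the start site. Rbm3 held 1 STAT and then 1 NF-kB match, Nts 1 AP-1 and then 1 NF-kB match, and Sele held none of the 6 in this window. The annotated start of Sele falls on the bases atg, the letters of a start codon. Its window may therefore miss the promoter, so the lack of matches says nothing about the promoter of Sele. Of all 33469 promoters in the table, 8.87% held the STAT motif, 7.33% AP-1, 47.3% NF-kB, 3.98% the ATF4 element, 7.17% CRX and 12.1% the antioxidant element. RefSeq promoters were found for 19 of the 33 higher and 30 of the 55 lower genes. Of the lower genes 2 held STAT (6.67%), and none of the higher did. NF-kB matches were in 14 of the higher (73.7%) and 15 of the lower (50%) genes.

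No rod gene passed the test between injected and uninjected eyes, and the libraries overlapped. The rod transducin Gnat1 ranged from 303 to 2360 CPM in injected plus light and from 689 to 2360 CPM in light damage (log2 -0.16 ± 0.31, edgeR adjusted p = 0.9). Of 28 rod genes tested none was called, 26 had a positive value with a median of 0.12, and the mean log2 level of the list was 7.77 ± 0.68 in injected plus light and 7.73 ± 0.40 in light damage (SD, n = 10 and 7). The rod phosphodiesterase Pde6a had the smallest p of the list, at 0.23 ± 0.13 (edgeR adjusted p = 0.546).

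Cones gave 1 called gene, Pde6c, which was lower in injected eyes. Pde6c, the cone phosphodiesterase, was at 15.9, 19.9, 22, 20.4 and 26 CPM in vehicle plus light and at 18.7, 18.3, 21.8, 16.3 and 21.5 CPM in nanoceria plus light, against 23.1, 28.6 and 36.2 CPM in light damage. Vehicle plus light 6 was the 1 injected library within the light damage range. Without light, Pde6c was at 12.3 to 17.7 CPM in control and 11.9 to 21.2 CPM in injected retinas, below every light damage library. Pde6c changed by -0.49 ± 0.11 (log2, SE; edgeR adjusted p = 0.0247). The call was lost without light damage 1, 5 or 6 (edgeR adjusted p up to 0.0998) and with the pairs summed and light damage 1 left out (0.0865). The medium-wave opsin Opn1mw changed by -0.69 ± 0.28 (edgeR adjusted p = 0.357) and the short-wave opsin Opn1sw by -0.32 ± 0.29 (edgeR adjusted p = 0.741). Of 14 cone genes 1 was called, beside 0.304% of all genes called lower, 13 were negative, and the median was -0.16. The mean log2 level of the cone list was 3.70 in injected plus light, 4.02 in light damage and 4.23 in control.

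**Figure D3:**
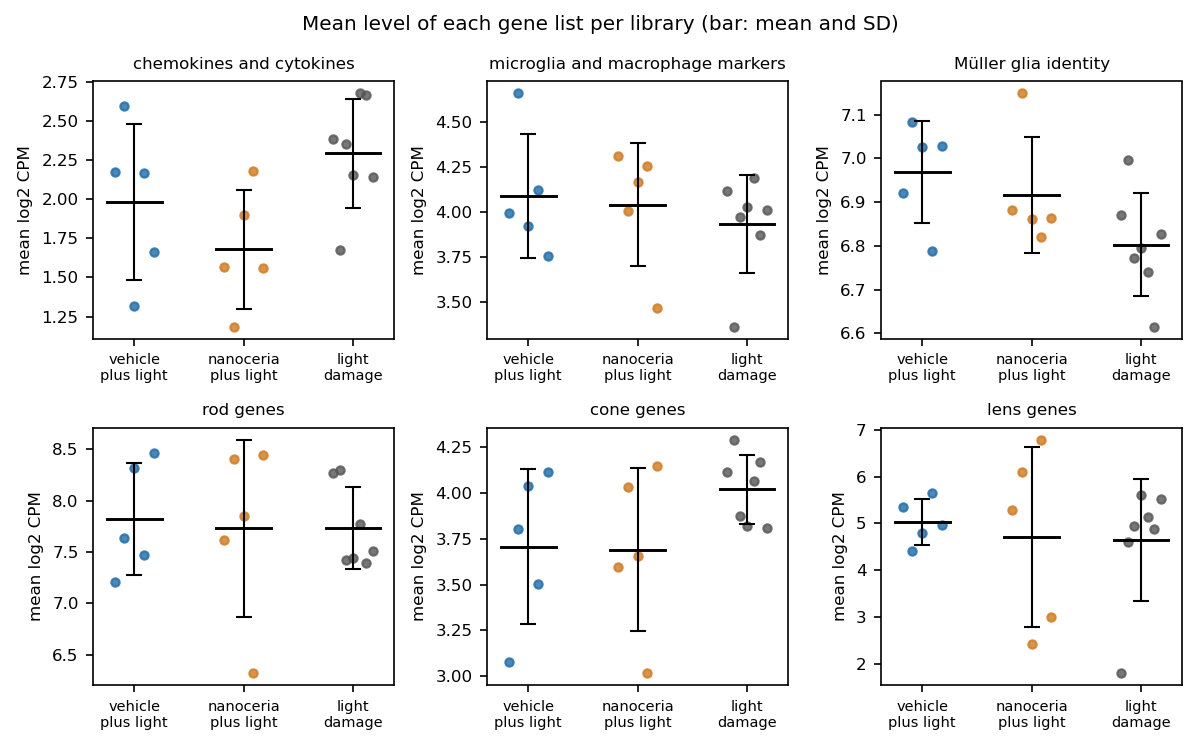
Mean log2 CPM of 6 gene lists (vertical axes) in each vehicle plus light (5), nanoceria plus light (5) and light damage (7) library, with a bar at the mean and whiskers of 1 SD. The libraries overlap between groups for every list shown. Chemokines and cytokines averaged 1.83 in injected plus light and 2.29 in light damage, and light damage 1 was low for lens genes, at 1.79.

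No gene of the stress and cell death lists passed, and Tigar and Rbm3, which are called, stand outside them. The heme oxygenase gene Hmox1 was at 30.1 to 147 CPM in injected plus light and 71.7 to 243 CPM in light damage (log2 -0.71 ± 0.27, edgeR adjusted p = 0.317). Sod2, the mitochondrial superoxide dismutase, was at 182 to 336 CPM in injected plus light and 229 to 385 CPM in light damage (log2 -0.36 ± 0.12, edgeR adjusted p = 0.194). None of 31 antioxidant, 30 stress response, 18 heat shock and 26 cell death genes passed, with medians of -0.02, 0.07, 0.07 and -0.05. Pmaip1, a p53 target that promotes cell death, changed by -0.28 ± 0.09 (edgeR adjusted p = 0.178). Tigar, a p53 target that slows glycolysis, fell: it was at 14.2 to 21.5 CPM in injected plus light and 22.7 to 27.2 CPM in light damage, with no overlap (log2 -0.40 ± 0.07, edgeR adjusted p = 0.0043; 0.0702 with the pairs summed and light damage 1 left out). Rbm3, a cold-induced RNA-binding protein, was at 135 ± 19.3 CPM in injected plus light and 205 ± 55.5 CPM in light damage (log2 -0.60 ± 0.13, edgeR adjusted p = 0.0215). Its 2 highest light damage libraries were the near-identical pair, and the call ended without light damage 1, 4 or 7 (edgeR adjusted p up to 0.082) and with the pairs summed (0.0944).

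Vps50, Wdr91 and Galns were among the called genes whose libraries did not overlap. Vps50, a subunit of a complex that tethers recycling endosomes, was at 37.8, 36.8, 40, 38.3 and 41.8 CPM in vehicle plus light and at 42.1, 40.5, 34.7, 36.8 and 45 CPM in nanoceria plus light, against 26.8, 30.2 and 32.4 CPM in light damage. No injected library reached down to any light damage library. Vps50 rose by 0.39 ± 0.06 (log2, SE; edgeR adjusted p = 0.000599). Wdr91, which acts in endosome maturation, fell to 30.1 to 45.7 CPM in injected plus light, against 47.4 to 67.4 CPM in light damage (log2 -0.55 ± 0.09, edgeR adjusted p = 0.00364). Galns, a lysosomal sulfatase that breaks down keratan sulfate, fell to 9.04 to 23.8 CPM in injected plus light, against 24.1 to 28.7 CPM in light damage (log2 -0.85 ± 0.15, edgeR adjusted p = 0.00381). Neither of these sets of libraries overlapped, and the 3 genes stayed called in all 17 fits with 1 library left out and under all 13 other alternatives. Slc27a1, a fatty acid carrier, was at 115 ± 14.5 CPM in injected plus light and 86.6 ± 9.47 CPM in light damage (log2 0.41 ± 0.07, edgeR adjusted p = 0.00529), with an edgeR adjusted p of 0.0934 with the pairs summed and light damage 1 left out.

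The peptide genes Apln and Nts fell, while none of 18 vascular and pericyte markers was called (median 0.01). Apln, the ligand of the endothelial apelin receptor, was at 2.76, 3.81, 4.03, 2.57 and 2.41 CPM in vehicle plus light and at 3.19, 4.51, 4.35, 2.88 and 2.64 CPM in nanoceria plus light, against 4.76, 5.87 and 7.54 CPM in light damage. The groups did not overlap, and Apln changed by -0.83 ± 0.13 (log2, SE; edgeR adjusted p = 0.00135), which was kept in every fit with 1 library left out and under all 13 other alternatives. Notch4, a Notch receptor of endothelium, rose by 0.71 ± 0.14 (edgeR adjusted p = 0.0135; 0.12 with the pairs summed and light damage 1 left out). Nts, which encodes the peptide neurotensin, fell to 0.269 to 0.618 CPM in injected plus light, against 0.875 to 1.81 CPM in light damage (log2 -1.29 ± 0.19, edgeR adjusted p = 0.00074). Oprk1, the kappa opioid receptor, fell to 0.0277 to 0.182 CPM in injected plus light, against 0.244 to 0.411 CPM in light damage (log2 -1.55 ± 0.27, edgeR adjusted p = 0.00381). Dbh, which makes noradrenaline from dopamine, fell to 0.719 to 1.82 CPM in injected plus light, against 2.1 to 3.02 CPM in light damage (log2 -0.90 ± 0.17, edgeR adjusted p = 0.00797; 0.0686 with the pairs summed and light damage 1 left out). None of these 3 overlapped between the sets. They are all rare transcripts, and they were chosen after their values were seen.

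Among the other called genes with a neural role, Grin3b, an NMDA receptor subunit, was at 6.33 to 9.57 CPM in injected plus light and 4.94 to 6.06 CPM in light damage, with no overlap (log2 0.56 ± 0.09, edgeR adjusted p = 0.00364). Trhr, the receptor for thyrotropin-releasing hormone, was at 3.54 ± 1.47 CPM in injected plus light and 1.82 ± 0.39 CPM in light damage (log2 0.95 ± 0.23, edgeR adjusted p = 0.0487), and held its call in 6 of 17 fits. Cntnap5b, of a family of neuronal adhesion proteins, was at 3.64 ± 1.06 CPM in injected plus light and 7.18 ± 1.31 CPM in light damage (log2 -1.0 ± 0.21, edgeR adjusted p = 0.0215). Its call was lost without light damage 4, 6 or 7 (edgeR adjusted p up to 0.0714). The call also ended with the replicate block (edgeR adjusted p = 0.103), with the pairs summed (0.0564) and with light damage 1 also left out (0.0934). Spice1, a centriole protein, rose by 0.41 ± 0.06 (edgeR adjusted p = 0.00074) without overlap, from 10.9 CPM upward in injected plus light, against at most 9.62 CPM in light damage. Aass, which breaks down lysine, rose by 0.52 ± 0.11 (edgeR adjusted p = 0.0215), and the mitochondrial dehydrogenase Aldh1b1 changed by -0.69 ± 0.16 (edgeR adjusted p = 0.045). The RNase P subunit Rpp38 changed by 0.37 ± 0.09 (edgeR adjusted p = 0.0415). Aass had an edgeR adjusted p of 0.225 with the pairs summed and light damage 1 left out. Aass held its call in 13, Aldh1b1 in 5 and Rpp38 in 4 of 17 fits with 1 library left out.

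Some of the largest differences were in genes whose level varied between light-exposed libraries in steps, namely Ptprh and Zwint. Ptprh, a receptor tyrosine phosphatase, was at 0.876, 1.14, 0.77, 1.47 and 2.02 CPM in vehicle plus light and at 1.55, 0.781, 0.766, 0.933 and 0.836 CPM in nanoceria plus light, against 1.32, 5.42, 7.81, 14.3, 1.19, 6.98 and 13.1 CPM in light damage 1 to 7. Of the 7 light damage libraries 2 were at the injected level, and the log2 difference was -2.71 ± 0.52 (edgeR adjusted p = 0.0099). Without light, vehicle 3 (10.7 CPM) and nanoceria 1, 2 and 5 (6.28, 3.79 and 4.88 CPM) were high as well, while the 5 control libraries were at 0.678 to 1.19 CPM. Zwint, a kinetochore protein, was at 730 and 886 CPM in nanoceria plus light 4 and 5, which is the light damage range of 706 to 958 CPM, and at 307 to 494 CPM in the other 8 injected libraries (log2 -0.77 ± 0.15, edgeR adjusted p = 0.0123; 0.149 with injected as 1 group, 0.0707 with the pairs summed and light damage 1 left out). Ghdc fell to 6.44, 6.88, 4.77, 7.51 and 4.07 CPM in vehicle plus light and 3.58, 3.8, 3.77, 4.18 and 4.67 CPM in nanoceria plus light, against 8.47, 10.5 and 11.9 CPM in light damage, without overlap (log2 -1.07 ± 0.15, edgeR adjusted p = 0.000365). LOC102549714, which the files do not describe, was at 1.89 to 8.41 CPM in the 10 injected libraries and 0.00652 to 0.147 CPM in light damage (log2 6.55 ± 1.00, edgeR adjusted p = 0.00105). Ghdc and LOC102549714 stayed called in this comparison under every alternative run for them.

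Genes of the rat histocompatibility complex, named RT1, moved in opposite directions. Of 37 tested, 2 rose and 5 fell, beside 0.486% of all genes called, and RT1-CE16_2, RT1-CE6 and RT1-CE3 were chosen after their values were seen. RT1-CE6 was at 0.678 to 1.66 CPM in injected plus light and 2.55 to 4.59 CPM in light damage (log2 -1.62 ± 0.19, edgeR adjusted p = 3.76e-05), RT1-CE3 at 0.125 to 0.666 CPM in injected plus light and 1.27 to 2.17 CPM in light damage (-2.04 ± 0.30, 0.000772), and RT1-CE7 changed by -0.79 ± 0.14 (0.00529). RT1-CE16_2, with a copy number in its name, changed by -2.12 ± 0.24 (edgeR adjusted p = 2.68e-05), and RT1-A2 by -0.74 ± 0.17 (edgeR adjusted p = 0.0487, held in 3 of 17 fits). RT1-CE10 changed by 0.85 ± 0.19 (edgeR adjusted p = 0.0305, held in 10 of 17 fits) and RT1-CE9-ps1 by 1.14 ± 0.23 (edgeR adjusted p = 0.0158; 0.0934 with the pairs summed and light damage 1 left out). These near-identical genes can share reads, so the split between them is uncertain. Summed over the 12 RT1-A and RT1-CE genes, the level was 425 ± 68.4 CPM in injected plus light and 496 ± 102 CPM in light damage (SD, n = 10 and 7).

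Each injected group was then set against light damage on its own. Vehicle plus light gave 11 higher and 11 lower genes (0.122% of genes called; edgeR adjusted p under 0.05) and nanoceria plus light gave 5 higher (0.0276%) and 6 lower (0.0332%), 0.0608% in all. The 2 comparisons use the same 7 light damage libraries, so their values stand side by side here and their likeness is no result. Ccl3 changed by -1.10 ± 0.28 in vehicle plus light and by -1.16 ± 0.28 in nanoceria plus light. Sele changed by -1.16 ± 0.33 in vehicle plus light and -1.34 ± 0.33 in nanoceria plus light. Neither gene passed in either group alone (edgeR adjusted p from 0.131 to 0.207). Vps50 passed in both, with 0.37 ± 0.06 in vehicle plus light and 0.40 ± 0.06 in nanoceria plus light. Spice1 did so too, with 0.46 ± 0.07 in vehicle plus light and 0.36 ± 0.07 in nanoceria plus light, as did Timd4, with 2.51 ± 0.51 in vehicle plus light and 2.90 ± 0.51 in nanoceria plus light (edgeR adjusted p from 0.00322 to 0.0388 for the 3 genes). Sox9 was at 0.95 ± 0.17 in vehicle plus light (edgeR adjusted p = 0.0093) and 0.64 ± 0.17 in nanoceria plus light (0.196), and Zwint at -1.09 ± 0.19 in vehicle plus light (0.0093) and -0.46 ± 0.18 in nanoceria plus light (0.567). Ghdc was at -0.79 ± 0.18 in vehicle plus light (edgeR adjusted p = 0.0748) and -1.36 ± 0.18 in nanoceria plus light (0.00089). None of these 3 was called between the injected groups in the direct test that follows. Without nanoceria plus light 4, that group's count was 47 (31 higher, 16 lower). It was 5 without light damage 7 and 6 without nanoceria plus light 1.

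**Figure D4:**
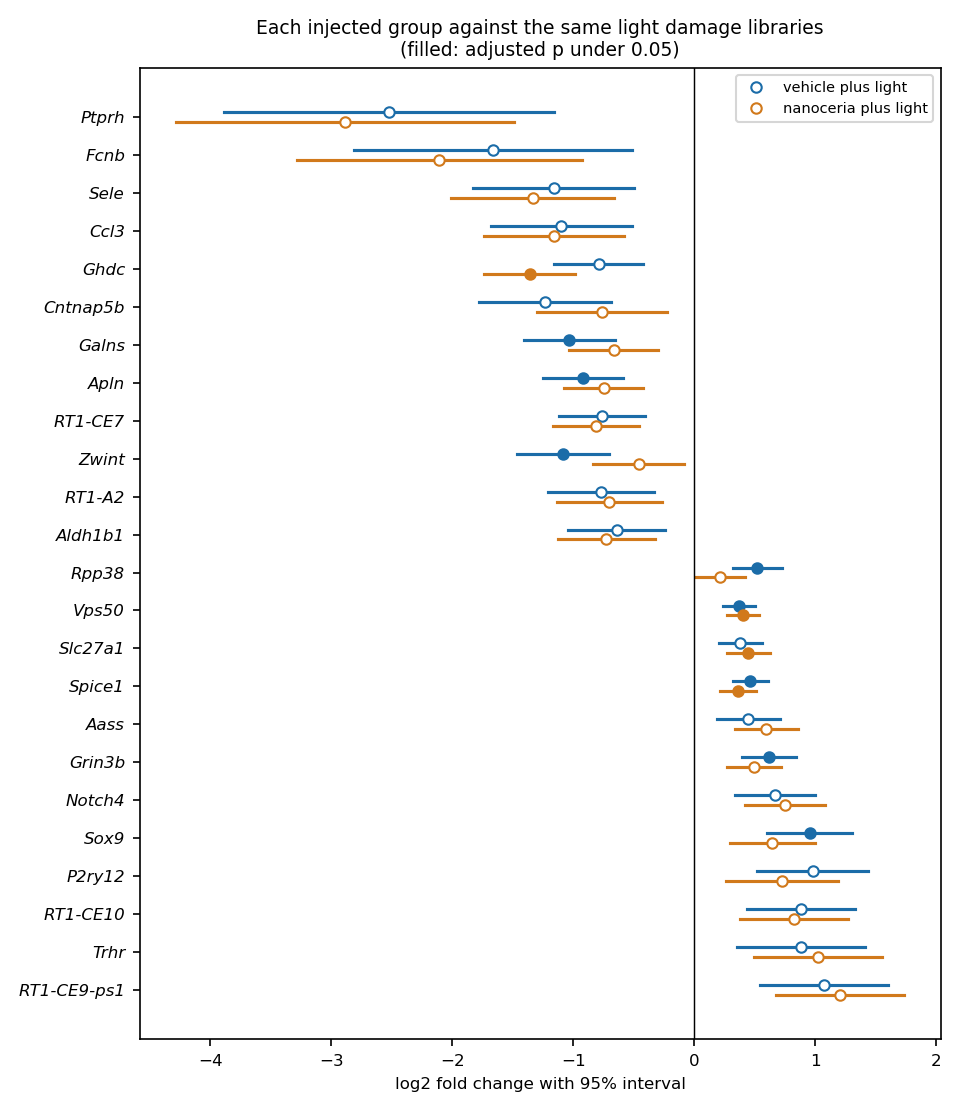
Log2 fold change with its 95% interval for the 24 genes with the largest called changes in the pooled comparison, in vehicle plus light (upper of each pair) and nanoceria plus light (lower), both against the same 7 light damage libraries. Filled circles passed an edgeR adjusted p under 0.05 in that group, and every gene has the same sign in both groups, which the shared libraries and the choice of genes help to set.

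What the syringe held made no difference that passed. Nanoceria plus light against vehicle plus light called 0 of 18094 genes with edgeR (0% of genes). At an unadjusted p under 0.05 there were 257 genes, where 905 would be expected by chance. That is fewer than chance would give, so the lack of calls does not show that the 2 injected groups were alike. DESeq2 called 4, all lower, and limma-voom 0. The smallest unadjusted p in edgeR belonged to Kcnj8, a pericyte potassium channel, which was at 5.07, 3.53, 8.2, 3.41 and 3.89 CPM in nanoceria plus light and 3.48, 3.33, 3.38, 3.24 and 2.6 CPM in vehicle plus light (log2 0.59 ± 0.18, edgeR adjusted p = 1). Zwint (0.63 ± 0.20), Cwc25 (-0.21 ± 0.07), Krt10 (-1.91 ± 0.64) and Ghdc (-0.57 ± 0.19) followed, each with an edgeR adjusted p of 1. Fgf2 differed by 0.30 ± 0.17 and Ccl2 by -0.52 ± 0.37 between the 2 injected groups.

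Without light, the same contrast gave more calls. Injected retinas (5 vehicle and 4 nanoceria libraries) against 5 control libraries had 121 higher (0.669%) and 72 lower (0.398%) genes (1.07% called; edgeR adjusted p under 0.05). That count fell to 39 without control 2 and lay between 57 and 127 without control 1, 4, 5 or 6, nanoceria 1, 2 or 3 or vehicle 2. The interleukin receptor gene Il17rb was higher by 2.10 ± 0.26 (edgeR adjusted p = 0.000126), and Chi3l1, a chitinase-like protein of reactive glia, by 2.07 ± 0.27 (edgeR adjusted p = 0.000202), from 44.7 to 300 CPM in the injected libraries, against 17.8 to 33.9 CPM in control. Fgf2 rose to 2.43, 1.95, 1.27, 1.8 and 1.6 CPM in vehicle and 3.17, 1.73, 2.2 and 2.56 CPM in nanoceria, against 0.934, 1.01 and 1.53 CPM in control (log2 0.82 ± 0.16, edgeR adjusted p = 0.0116; 0.0592 with the compared groups fitted alone). Gfap changed by 1.52 ± 0.47 (edgeR adjusted p = 0.109), and the ets factor Etv4 changed by -0.93 ± 0.12 (edgeR adjusted p = 0.000136). Lens genes, which the needle or the dissection can carry into a retina, had a median of 1.54 in this comparison and 0.25 under light, with none of 22 called in either. Their mean log2 level was 4.96 to 8.81 in vehicle and 3.51 to 7.4 in nanoceria, against 2.53 to 6.65 in control. Their part in the results was not tested.

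Of the 88 genes called under light and the 193 called without it, 6 were on both lists, which is 6.82% of the first and 3.11% of the second, against 1.07% of all genes called without light and 0.486% under light. The 2 comparisons share no library. Galns was lower in injected eyes in both (-0.85 under light and -0.73 without) and LOC102549714 higher in both (6.55 and 5.96). Without light LOC102549714 was at 2.31 and 1.63 CPM in 2 of 5 vehicle and at 3.34, 2.6 and 2.45 CPM in 3 of 4 nanoceria libraries, but at most 0.0545 CPM in the other 4 injected ones and at most 0.0719 CPM in control. The other 4 genes had opposite signs: Ccl3 (-1.13 and 1.36), Cntnap5b (-1.0 and 1.26), the placeholder gene AABR07017268.1 (0.73 and -0.87) and Plscr5. Plscr5 was at 0 to 0.0633 CPM in injected plus light and 0.0891 to 0.195 CPM in light damage, and at 0 in all 5 control libraries. The call for Galns without light held in 6 of 14 fits with 1 library left out and was lost with the Y-linked term, with the pairs summed and with the groups fitted alone (edgeR adjusted p up to 0.079 over the alternatives). The call for LOC102549714 without light ended without control 2 (edgeR adjusted p = 0.0663). It held in 7 of 12 other alternatives. It was lost with voom (limma-voom adjusted p = 0.239), also with the pairs summed, and with the replicate block, the Y-linked term and the groups fitted alone. The call for Ccl3 without light held in 7 of 14 fits with 1 library left out and in 5 of 12 other alternatives. It was lost with voom, the replicate block, the Y-linked term and the groups fitted alone. Summing the pairs also ended it in edgeR and in voom (limma-voom adjusted p = 0.16).

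The test of the difference itself, the injection difference under light minus that without light, called 16 higher (0.0884%) and 39 lower (0.216%) genes (0.304% in all; edgeR adjusted p under 0.05). The count was 108 without vehicle plus light 2, 92 without light damage 2, 36 without light damage 6 or without nanoceria 1 and 28 without control 2. Ccl3 gave -2.48 ± 0.40 (log2, SE; edgeR adjusted p = 0.00396), a call kept whichever 1 of the 31 libraries was left out. It averaged 4.69 CPM in injected plus light and 10.3 CPM in light damage, and 0.43 CPM in injected retinas without light and 0.17 CPM in control. Ccl2 gave -2.21 ± 0.48 (edgeR adjusted p = 0.0334); the call was lost without any of 8 libraries (control 1, 2 or 5, light damage 4, 6 or 7, nanoceria 1 or 2; edgeR adjusted p up to 0.0932). Nlrp1a, an inflammasome sensor, gave -2.73 ± 0.45 (edgeR adjusted p = 0.00484), with 4.69 ± 2.38 CPM in injected plus light and 10.5 ± 1.88 CPM in light damage (SD, n = 10 and 7), and 5.6 CPM in injected retinas without light and 1.9 CPM in control. Chi3l1 gave -1.87 ± 0.34 (edgeR adjusted p = 0.0106), Cntnap5b -2.26 ± 0.34 (edgeR adjusted p = 0.00163), Etv4 0.98 ± 0.16 (edgeR adjusted p = 0.00396) and Vps50 0.46 ± 0.08 (edgeR adjusted p = 0.0101). For Fgf2 (-0.32 ± 0.20), Gfap (-0.85 ± 0.59) and P2ry12 (0.13 ± 0.29) the injection difference was not shown to depend on light (edgeR adjusted p from 0.624 to 0.934).

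**Figure D5:**
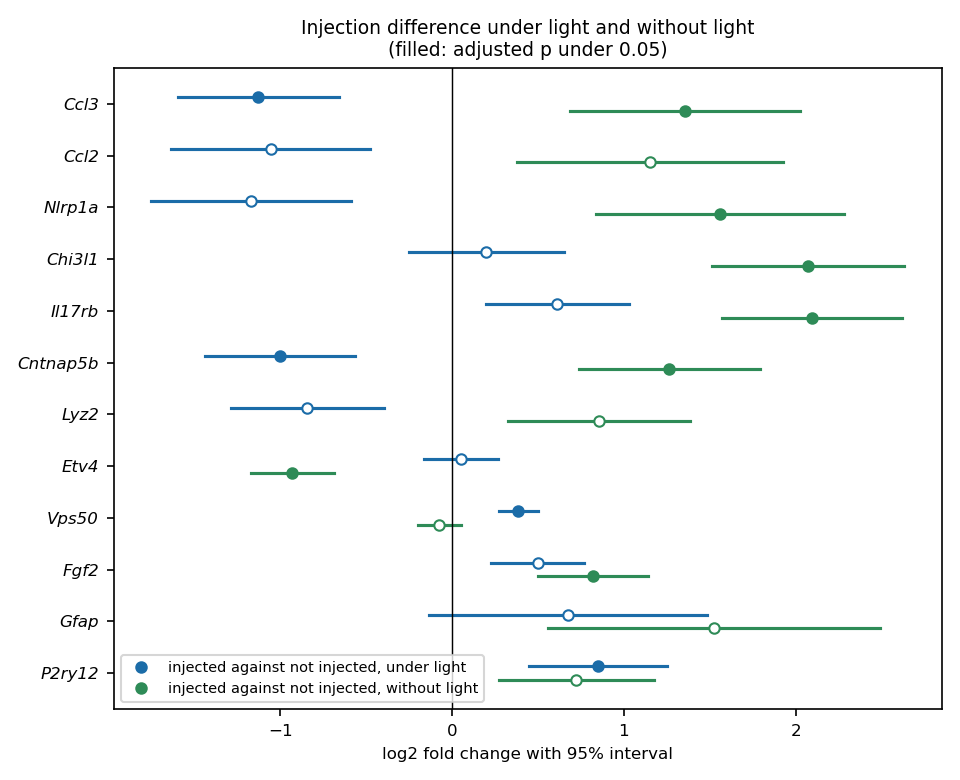
Log2 fold change with its 95% interval for injected against uninjected retinas, under light (upper of each pair: 10 libraries against 7) and without light (lower: 9 libraries against 5), for 12 genes. Filled circles passed an edgeR adjusted p under 0.05. Ccl3 and Cntnap5b passed in both with opposite signs, and Fgf2 is positive in both.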

How the data were processed

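PolyA RNA of rat retina was sequenced. The labels number the libraries of a group as biological replicates. The authors deposited 1 table of unnormalised whole-number counts by gene. Per the submitters' processing notes Trimmomatic 0.39, STAR 2.7.9a, featureCounts of Subread 2.0.1, DESeq2 1.30.1 and R 4.0 were used with build rn6. The strand setting, the annotation release and how multiply mapped reads were treated: not given in the sources used here. Columns matched 31 of 42 labelled samples, and the other 11 were not analysed here. Of 32623 genes, 18094 passed the filter of edgeR (minimum count 10, minimum total 15).

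All 31 libraries entered 1 quasi-likelihood fit of edgeR 4.0.16 (robust, TMM scaling, 1 coefficient per group) in R 4.3.3. The 2 injected groups had equal weight in the pooled contrast, and p-values were adjusted by Benjamini-Hochberg over 18094 genes. Adjusted p is from this fit unless another is named. Log2 list levels used a prior count of 2, and list values carry no test. Fits were tested on simulated data. The named genes are a selection of the 12 highest and 12 lowest called genes (proper symbol, mean log2 CPM of at least 1), the 2 list members with the smallest p, and a set of fixed genes; per group and without light the 5 highest and 5 lowest, and for the other 2 contrasts the 5 smallest p. Some results are not reported here. Members and lists were chosen with earlier results of these data known. Of 709 list memberships 682 matched a symbol in the file.

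Alternatives were DESeq2 1.42.0 (size factors, Wald test), library size alone, no filter, limma 3.58.1 voom with quality weights, groups compared alone, the replicate number as a block, a term for high Y-linked transcripts, near-identical pairs summed, injected as 1 group, and leaving out libraries. With the pairs summed, leaving out light damage 1 or using voom or DESeq2 was chosen after seeing the data.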

Additional observations from a re-analysis of the deposited data

Results flagged for a closer look

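A single library stood far from the rest of its group in 26 of 321 groups of values examined, where chance gives about 1 in 20. Vehicle plus light 1 was such a library for Spice1 (14.6 CPM), RT1-CE7 (20.5 CPM), RT1-A2 (74.9 CPM), RT1-CE10 (26.3 CPM), RT1-CE9-ps1 (15.3 CPM) and Opn1mw (3.3 CPM), vehicle plus light 2 for Fcgr3a (18 CPM) and vehicle plus light 4 for Trhr (1.78 CPM). Among nanoceria plus light libraries these were number 1 for Ptprh (1.55 CPM), 4 for Il4r (95.9 CPM) and 5 for Milr1 (0.36 CPM). Lists did so too, with mean log2 levels of 7.15 for Müller glia identity and 4.57 for interferon-stimulated genes in nanoceria plus light 2, and 5.05 for ciliary body and iris genes in nanoceria plus light 5.

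Light damage 1 stood apart for the 22.9% of counts in 8 genes, for Tigar (27.2 CPM), RT1-CE16_2 (1.66 CPM), Nts (1.81 CPM) and lens genes (mean log2 level 1.79). Light damage 2 did so for Lyz2 (99.4 CPM), Il4r (43.5 CPM) and the mean log2 levels of microglia and macrophage markers (3.36), complement (3.75), STAT3 targets (5.75) and cell death genes (3.7), and light damage 5 for Cxcl13 (10.7 CPM).

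The injection difference under light minus that without light passed edgeR's test for Plscr5 and for 19 others of the genes named here. For Plscr5, at 0 in all 5 control libraries, it was below 0 and 9.18 in size, the largest called. Also below 0, it was -4.6 for Ptprh, -3.91 for Fcnb, -2.73 for Nlrp1a, -2.48 for Ccl3, -2.26 for Cntnap5b, -2.21 for Ccl2, -1.87 for Chi3l1, -1.7 for Lyz2, -1.62 for RT1-CE6 and -1.49 for Il17rb. Nearer to 0 it was -1.02 for RT1-CE7, -1.01 for Tspan4, -0.95 for Icam1, -0.77 for Cry2 and -0.63 for Wdr91. Above 0 it was 1.47 for Trib3, 0.98 for Etv4, 0.48 for Spice1 and 0.46 for Vps50.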

How the results depend on the processing

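Counts of called genes depended on the test. In injected plus light against light damage, DESeq2 called 220, limma-voom 428, the fit of the compared groups alone 37, injected as 1 group 38 and the pairs summed 57 (24 without light damage 1, 146 with DESeq2). Vehicle plus light had 89 with DESeq2 and 229 with voom, and with the pairs summed 9 without light damage 1, 42 with voom and 56 with DESeq2. Nanoceria plus light had 89 with DESeq2, 37 with voom, 5 with the groups alone and 7 with the pairs summed (6 without light damage 1, 7 with voom, 60 with DESeq2). Nanoceria plus light against vehicle plus light had 4 with DESeq2, pairs summed or not. Without light there were 534 with DESeq2, 1592 with voom, 60 with the Y-linked term and 105 with the pairs summed (102 without light damage 1, 386 with voom, 420 with DESeq2). The difference between the injection effects gave 242 with DESeq2, 234 with voom, 36 with the Y-linked term and 36 with the pairs summed (23 without light damage 1, 172 with DESeq2). Leaving out libraries or replicate numbers gave 27 to 166 for the pooled contrast, 7 to 30 for vehicle plus light, 3 to 47 for nanoceria plus light, 30 to 254 without light and 12 to 108 for the difference. The cause was not tested.

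With the replicate number as a block the pooled contrast had 45 calls, that without light 52 and the difference 21. Of the 88 genes called in the main fit, 43 were also called with this block. Same-numbered libraries correlated at -0.215 to 0.314, over 0.1 in 5 of 14 pairs, and 4 of 17 correlated best with their own number. Different-numbered libraries correlated at -0.369 to 0.439, over 0.1 in 21 of 81 pairs. These correlations cannot settle whether the numbers mark a pairing or a batch, which was not tested.

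Small differences changed sign. Cntf was -0.123 with voom and -0.109 with voom and pairs summed (-0.051 to 0.27 with libraries left out). Bdnf was 0.021 by library size and 0.026 with voom, and with the pairs summed 0.047 without light damage 1 and 0.041 with voom (-0.144 to 0.106 with libraries left out). C3 was -0.008 with the pairs summed and light damage 1 left out (-0.073 to 0.857), Socs3 -0.082 with voom and -0.005 with voom and pairs summed (-0.071 to 0.174), and Gnat1 -0.433 to 0.215 with libraries left out. The trophic list differed by -0.282 as a median over genes and by -0.057 as a mean. Counting each named gene once per alternative, apart from the fits that only left out libraries, 1074 other results kept direction and call status. The call was lost in 170 and gained in 47. The 1074 include genes called in neither fit, so these counts give no share of calls lost. Depth limits what rare genes show (Timd4, Oprk1, Nts, Cd209e).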

Other observations

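Gene groups outside the comparisons above gave no calls between injected plus light and light damage, apart from those named there. Of 24 sterol synthesis genes 21 had a negative log2 fold change (median -0.10), as did 20 of 24 glycolysis genes (-0.06), 22 of 29 wound and matrix genes (-0.13), 15 of 19 NF-kB targets (-0.13) and 6 of 7 blood genes (-0.37). Inner retinal neurons were similar: 13 of 14 amacrine and horizontal, 13 of 14 ganglion and 11 of 15 bipolar cell markers were negative, with medians of -0.13, -0.11 and -0.12. Positive values were the more common among 35 interferon-stimulated genes (22, median 0.04), 21 proliferation genes (15, 0.06) and 12 mitochondrially encoded genes (9, 0.05). Medians of 29 immediate early genes (-0.01), 22 neutrophil and lymphocyte markers (-0.02), 18 vascular markers (0.01), 16 pigment epithelium genes (0.03), 14 ciliary body and iris genes (-0.01) and 18 circadian genes (0.02) lay near that of all genes, 0.002.

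Without light, some immune lists held called genes, all of them higher, and others held none. Of 28 microglia and macrophage markers 5 rose and none fell (median 0.73), of 29 chemokine and cytokine genes 4 rose and none fell (0.60) and of 21 complement genes 4 rose and none fell (0.58), beside 1.07% of all genes called in that comparison. Of 22 neutrophil and lymphocyte markers 1 rose and none fell (0.81). None of 35 interferon-stimulated genes (median -0.05) or 19 NF-kB targets (-0.05) was called, and the median of all genes was -0.03.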
